A study of Homo sapiens with 96 samples.

Results

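The genes NOP2, NSUN2, NSUN3, NSUN4, NSUN5 and NSUN6 encode RNA cytosine methyltransferases of the NOP2/NSUN family. Every alternative splicing event of these 6 genes in 8 deposited tables was taken by gene symbol, which gave 125 of 239131 events and 6 of 14359 genes. The 125 events were 82 skipped exons (SE), 27 pairs of mutually exclusive exons (MXE), 7 alternative 3′ splice sites (A3SS), 4 alternative 5′ splice sites (A5SS) and 5 retained introns (RI). NSUN2 had 41 events, NSUN5 20, NOP2 18, NSUN3 and NSUN4 16 each, and NSUN6 14. The RI lay in NOP2 (2) and NSUN5 (3). Of the 125 events, 118 had at least 10 reads in every library of at least 1 comparison with DMSO and were tested, 7 never reached that depth, and 38 were listed in all 8 tables. A table lists an event only where its junctions were seen among the 6 libraries of that table.

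The events were counted in poly(A) RNA of A549 cells, a long-used human line derived from a lung adenocarcinoma, in 30 libraries that form 10 groups of 3. Cells were given 1 µM GSK591, an inhibitor of PRMT5, for 2, 4 or 7 days, 1 µM MS023, an inhibitor of Type I protein arginine methyltransferases (PRMTs), for 2, 4 or 7 days, or both inhibitors (co-treatment) for 2 or 4 days, and control cells were given 0.01% DMSO for 4 or 7 days. The inhibitor groups of 2 and 4 days were tabulated against DMSO of 4 days and those of 7 days against DMSO of 7 days, so the effect of 2 days of inhibitor and the difference in culture time cannot be told apart. All groups came from 1 cell line, the origin of the replicates is not stated, and p-values measure the spread between these libraries. Because the tables give libraries only by position, they are called a, b and c within a group. Reads on RI events numbered 3118222 to 5224249 per library. The epithelial keratins KRT8 and KRT18 had 15109 to 84446 reads on their deepest event, whereas the leukocyte genes CD3E and CD14 had at most 19 and the endothelial VWF at most 3. EPCAM, also epithelial, had 5 to 184 and the fibroblast collagen COL1A1 9 to 76, and several other markers had no listed event. GSK591 2 days library a stood apart from its replicates, since its reads over RI differed from theirs with a chi-square of 32.0 and 37.3 per degree of freedom, against 2.73 to 6.24 for every other pair of replicates. Without it 4 in place of 6 events of the 6 genes were called with GSK591 at 2 days, and 6 in place of 9 between GSK591 and MS023.

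Methylation of carbon 5 of cytosine (m5C) is an RNA modification placed mainly by this family, whose members divide the RNA classes between them. NOP2 is a nucleolar protein that methylates the large-subunit rRNA and is needed for assembly of the large ribosomal subunit, and NSUN5 methylates another cytosine of the same rRNA. NSUN2 methylates tRNAs and further RNAs, NSUN6 acts on tRNAs and mRNAs, NSUN3 on the mitochondrial methionine tRNA and NSUN4 on the mitochondrial small-subunit rRNA. PRMT5 makes symmetric and Type I PRMTs make asymmetric dimethylarginine, and many of their substrates are splicing factors.

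The sequences of the introns and exons on which the results turn are given 5′ to 3′ in the sense of transcription, read from GRCh37 (hg19). In the introns capitals mark the first and last bases of the intron and the first stop codon in the frame of the preceding exon, and in the exons capitals mark the exon, shown with 20 bases of intron on either side. All are on the minus strand. NOP2 (chr12:6666029-6677857) has 15 introns in its main transcript, and introns 13 and 14 (chr12:6669736-6669863 and chr12:6669493-6669612) lie between coding exons. They are shown because reads of adjacent introns behaved differently.
NOP2 intron 14: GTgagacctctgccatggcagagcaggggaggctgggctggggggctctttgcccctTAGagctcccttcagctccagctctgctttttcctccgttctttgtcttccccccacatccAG
NOP2 intron 13: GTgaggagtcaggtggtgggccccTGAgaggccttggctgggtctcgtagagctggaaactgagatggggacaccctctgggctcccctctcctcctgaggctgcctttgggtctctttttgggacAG
Exons 4 and 6 of NSUN2 (gene chr5:6599352-6633404, exons chr5:6625677-6625782 and chr5:6622129-6622213) and exon 4 of NSUN5 (gene chr7:72716513-72722823, exon chr7:72721391-72721499) are coding exons whose skipping was called in several comparisons.
NSUN2 exon 4: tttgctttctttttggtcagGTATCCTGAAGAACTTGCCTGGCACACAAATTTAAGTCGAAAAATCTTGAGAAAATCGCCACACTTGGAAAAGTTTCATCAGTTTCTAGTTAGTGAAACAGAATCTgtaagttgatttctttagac
NSUN2 exon 6: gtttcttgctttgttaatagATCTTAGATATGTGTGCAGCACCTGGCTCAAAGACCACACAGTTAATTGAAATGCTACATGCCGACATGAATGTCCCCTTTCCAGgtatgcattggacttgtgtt
NSUN5 exon 4: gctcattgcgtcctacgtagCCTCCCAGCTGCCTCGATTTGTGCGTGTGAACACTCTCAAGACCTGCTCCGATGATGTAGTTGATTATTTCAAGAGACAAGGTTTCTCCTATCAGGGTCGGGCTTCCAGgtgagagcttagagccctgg

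NOP2 intron 14 was retained far more often after GSK591 and after co-treatment than in DMSO, at every time point, and not after MS023. Retention is given as Ψ, the share of transcripts with the intron after reads of each form are divided by the effective length of the form, and ΔΨ is the inhibitor mean minus the DMSO mean. In DMSO Ψ was 0.203, 0.159 and 0.195 at 4 days (0.186 ± 0.0233, SD, n = 3) and 0.244, 0.213 and 0.194 at 7 days (0.217 ± 0.0254). In GSK591 it was 0.543, 0.551 and 0.489 at 2 days, 0.608, 0.626 and 0.598 at 4 days (0.611 ± 0.0144) and 0.600, 0.586 and 0.568 at 7 days. Every GSK591 library lay above every DMSO library. In co-treated cells Ψ was 0.434, 0.475 and 0.494 at 2 days and 0.463, 0.511 and 0.523 at 4 days (0.499 ± 0.0315), above every DMSO library. The 4-day co-treatment libraries lay below every GSK591 library of that day, and the 2-day libraries overlapped those of GSK591. In MS023 it was 0.150, 0.138 and 0.139 at 2 days, 0.195, 0.161 and 0.187 at 4 days and 0.187, 0.184 and 0.165 at 7 days, within or below the DMSO range.

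By the quasi-binomial test with Benjamini-Hochberg adjustment over all RI of a comparison, ΔΨ of intron 14 was 0.342 at 2 days (adjusted p = 6.11e-09), 0.425 at 4 days (adjusted p = 3.8e-13) and 0.368 at 7 days (adjusted p = 5.7e-11) of GSK591. In co-treated cells it was 0.282 at 2 days (adjusted p = 6.74e-11) and 0.313 at 4 days (adjusted p = 5.06e-12). These calls held when any library was left out, and without GSK591 2 days library a the 2-day ΔΨ was 0.334. Among all RI tested, 26.4%, 38.2% and 27.9% were called after GSK591 at 2, 4 and 7 days and 34.7% and 39.7% after co-treatment at 2 and 4 days, so a call as such does not set this intron apart. Its size was less common, because a ΔΨ at least as large was found in 60 of 3866, 60 of 3933 and 47 of 3836 RI, where the median over all RI was 0.015, 0.0196 and 0.00762. In co-treated cells 141 of 3897 and 170 of 3949 RI moved at least as far. The study chose this intron among its candidates on these samples, so its direction is not independent evidence.

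The MS023 values of intron 14 did not pass the test, which 5.65%, 7.17% and 11.4% of all RI passed at 2, 4 and 7 days. ΔΨ was -0.0433 at 2 days (adjusted p = 0.091), -0.0046 at 4 days (adjusted p = 0.97) and -0.0384 at 7 days (adjusted p = 0.24). At 2 days and at 7 days all 3 MS023 libraries were below all 3 libraries of their DMSO group. The outcome at 2 days depended on DMSO 4 days library b, without which ΔΨ was -0.0566 (adjusted p = 0.0291). Compared directly, GSK591 exceeded MS023 by 0.385 (0.377 without GSK591 2 days library a), 0.429 and 0.406 at 2, 4 and 7 days (adjusted p = 2.03e-11, 6.27e-19 and 2.73e-22), where 34.2%, 44.8% and 39.4% of all RI were called. Co-treatment lay below GSK591 alone, by a ΔΨ of -0.112 at 4 days (adjusted p = 2.01e-05, called without any library in turn but with adjusted p = 0.22 by limma on log2 odds) and of -0.060 at 2 days (adjusted p = 0.138, but -0.0793 with adjusted p = 0.0444 without GSK591 2 days library c). Of all RI, 3.45% and 8.92% were called between co-treatment and GSK591 at 2 and 4 days. The GSK591 effect at 7 days differed from that at 4 days by -0.057 (adjusted p = 0.194).

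Relative to all reads on RI forms, the gain of retained reads at 4 days of GSK591 was larger than the loss of spliced reads. In DMSO at 4 days the 3 libraries held 230, 226 and 212 reads of the retained form and 500, 660 and 484 of the spliced form of intron 14. With GSK591 at 4 days they held 956, 1231 and 1140 retained and 341, 407 and 425 spliced reads. Scaled to 1000000 reads on RI forms, retained reads stood at 52.3 to 58.3 in the DMSO libraries and at 273 to 318 in the GSK591 libraries, and spliced reads at 124 to 153 and at 97.2 to 105. The groups did not overlap in either form. This scaling does not separate splicing from the amount of transcript, and the paper reports higher NOP2 expression with GSK591 and unchanged expression with MS023. Set against spliced reads of the neighbouring upstream intron, spliced reads of intron 14 fell further. The mean ratio was 0.809 in DMSO at 4 days and 0.385 with GSK591 at 4 days, without a test.

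In the limma voom fit of all form reads, retained reads of intron 14 rose by 1.97 ± 0.15 (log2 fold change ± SE, adjusted p = 0.0010, and 2.07 without library a), 2.38 ± 0.11 (adjusted p = 2.9e-15) and 2.04 ± 0.12 (adjusted p = 3.3e-10) at 2, 4 and 7 days of GSK591, and by 1.68 (adjusted p = 1e-10) and 1.80 (adjusted p = 1.1e-12) at 2 and 4 days of co-treatment. Spliced reads fell by 0.41 at 4 days (adjusted p = 0.0019) and 0.31 at 7 days (adjusted p = 0.033) of GSK591 and by 0.27 (adjusted p = 0.044) and 0.33 (adjusted p = 0.011) at 2 and 4 days of co-treatment, while the 2-day GSK591 value was -0.34 (adjusted p = 0.21, and -0.20 with adjusted p = 0.244 without library a). The fall at 4 days of GSK591 was called in 6 of 6 fits without a library, that at 7 days in 2, and those of co-treatment in 3 and 4, where DMSO 4 days library b and several treated libraries decided the call. Of all form reads tested, 16.3%, 49.8% and 50.7% were called after GSK591 at 2, 4 and 7 days, and 47.8% and 57.7% after co-treatment at 2 and 4 days. The median over all form reads was -0.11, 0.05 and -0.09 at 2, 4 and 7 days of GSK591. It was -0.01 and 0.12 at 2 and 4 days of co-treatment and -0.06 at each time of MS023. Spliced-read values of intron 14 lay below these medians in every GSK591 and co-treatment group and at 4 and 7 days of MS023. At 2 days of MS023 the value of -0.02 lay above the median. Counted from the median, the fall is larger than printed at 4 days of GSK591 and of co-treatment, where the median was positive. Where the median was negative it is smaller than printed. With MS023, where 13.9%, 22.8% and 27.2% of form reads were called, retained reads fell by 0.46 at 2 days (adjusted p = 0.021) and by 0.59 at 7 days (adjusted p = 0.010), and the 4-day value was -0.32 (adjusted p = 0.109). Spliced reads fell by 0.29 at 4 days of MS023 (adjusted p = 0.044), with -0.02 and -0.25 (adjusted p = 0.102) at 2 and 7 days. The 2-day retained call was lost when DMSO 4 days library a or an MS023 library was left out, the 7-day one without MS023 7 days library c, and the 4-day spliced call when DMSO 4 days library b or an MS023 library was left out.

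Intron 13, only 1 exon upstream, was retained rarely in every group, with Ψ between 0.0206 and 0.065 over the 30 libraries. It was not called in any comparison with DMSO, and between GSK591 and MS023 it was called at 4 days (ΔΨ -0.0171, adjusted p = 0.048, kept in 2 of 6 fits without a library). Its spliced reads nevertheless rose after GSK591 and co-treatment. They numbered 653, 716 and 654 in DMSO at 4 days and 930, 1076 and 1036 with GSK591 at 4 days, a log2 fold change of 0.66 (adjusted p = 1.6e-07). The rise was 0.43 at 2 days of GSK591 (adjusted p = 0.049, and 0.52 with adjusted p = 0.000156 without library a, but lost when DMSO library a, b or c or GSK591 library b or c was left out), 0.49 at 7 days (adjusted p = 0.0002), and 0.38 (adjusted p = 0.00048) and 0.52 (adjusted p = 1.9e-05) at 2 and 4 days of co-treatment. Its retained reads rose by 0.55 at 2 days of co-treatment (adjusted p = 0.049, lost in each of the 6 fits without a library), and their values were 0.59, 0.17 and 0.70 at 2, 4 and 7 days of GSK591 (adjusted p = 0.128, 0.601 and 0.0657) and 0.20 at 4 days of co-treatment (adjusted p = 0.481). With MS023 spliced reads of intron 13 had a log2 fold change of -0.04 at 2 days (adjusted p = 0.77) and fell by 0.39 at 4 days (adjusted p = 0.0018) and by 0.34 at 7 days (adjusted p = 0.013).

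**Figure D1:**
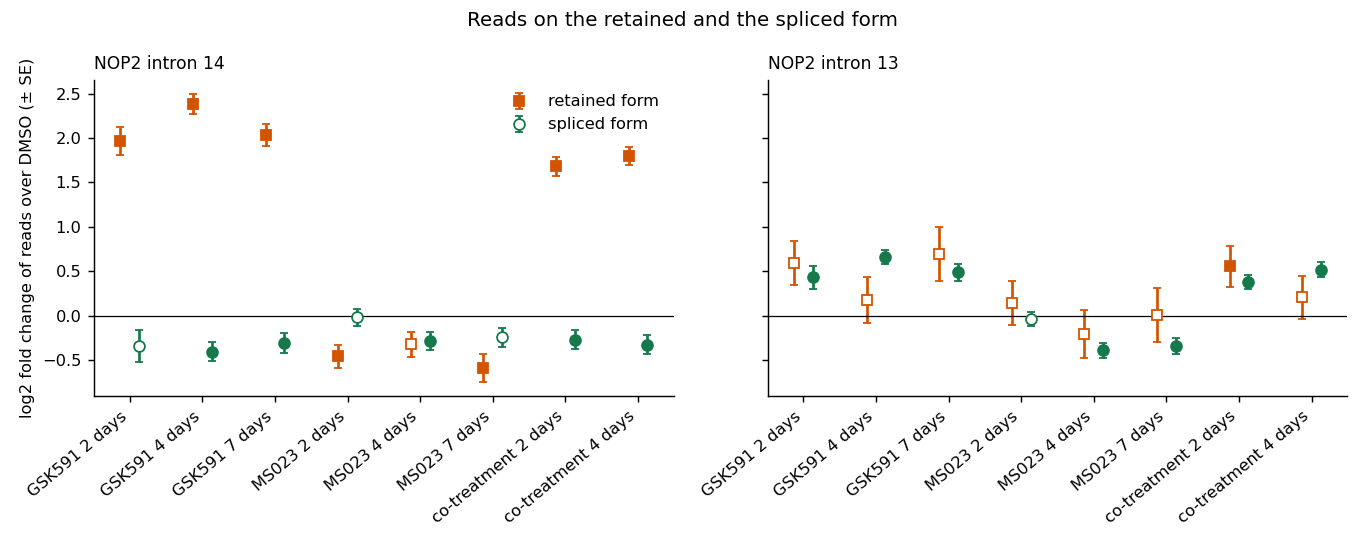
Change in reads of the retained form (orange squares) and the spliced form (green circles) of NOP2 introns 14 and 13 against DMSO. The vertical axis is the log2 fold change with its SE from limma voom, and filled symbols have an adjusted p under 0.05. With GSK591 and co-treatment the retained reads of intron 14 sit between 1.68 and 2.38 while its spliced reads lie below 0, and the spliced reads of intron 13 lie between 0.38 and 0.66.

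The ratio of spliced reads of intron 14 to those of intron 13 describes both junctions of the same libraries without any scaling between libraries. This ratio was chosen after the values were seen and is given without a test. It was 0.740 to 0.922 in DMSO at 4 days and 0.619 to 0.667 at 7 days. With GSK591 it was 0.435 to 0.559, 0.367 to 0.410 and 0.361 to 0.386 at 2, 4 and 7 days, and with co-treatment 0.465 to 0.613 and 0.434 to 0.467 at 2 and 4 days. In each of these groups all libraries lay below all libraries of the DMSO group with which they were compared. With MS023 the ratio was 0.761 to 0.871, 0.808 to 0.903 and 0.650 to 0.730. Another annotated gene on the same strand overlaps NOP2, and the deposited counts do not separate their reads.

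The 5′ splice site of intron 14 reads acaGTgaga and matches the consensus cagGTaagt at 4 of 9 positions, whereas 98.1% of 4282 tested RI match at least as many, with a median of 6. Among the 15 introns of NOP2 only intron 7, which has AT-AC ends, matches fewer (3), and intron 15 matches at 9 of 9. Intron 14 is 120 bases long with a GC content of 60.8%, and the RI tested had medians of 263 bases and 57.0%. It is the fourth shortest intron of the gene. Pyrimidines make up 86.7% of the 15 bases that precede its last 3. Intron 13 is 128 bases long with a GC content of 61.7%, its 5′ site aagGTgagg matches at 6 positions, and pyrimidines make up 60.0% of the same 15 bases. If intron 14 is read in frame, a TAG stop stands at intron bases 58 to 60, after 1560 of the 2436 coding bases, with 876 coding bases left, and in intron 13 a TGA stop stands at bases 25 to 27. These are descriptions of the sequence and carry no test.

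Introns of other genes were compared with intron 14 by their pattern over the 10 groups. Among 1805 RI of other genes whose group means span at least 0.1, the correlation of mean log2 odds of retention with intron 14 had a median r of 0.714 and was over 0.9 for 416, while 371 had an r of 0 or below. All points are the same 10 groups of libraries, and the DMSO groups are common to all. The 5 most alike were introns of HNRNPH1 (r = 0.997), SAT2 (r = 0.996), KIAA0195 (r = 0.993), THOC6 (r = 0.990) and SMARCC2 (r = 0.990). HNRNPH1 encodes a nuclear RNA-binding protein, and its intron went from a mean Ψ of 0.0911 in DMSO to 0.298 with GSK591 at 4 days. THOC6 encodes a subunit of the THO complex of mRNA export, and its intron went from 0.0679 to 0.516.

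In Ψ, the 3 RI of NSUN5 were not called in any comparison with DMSO. Intron 9 (chr7:72717527-72717596, 70 bases) had Ψ of 0.171, 0.201 and 0.148 in DMSO at 4 days and 0.114 to 0.265 over all 30 libraries. It was higher with co-treatment than with MS023 at 2 days (mean 0.229 against 0.154, ΔΨ 0.0748, adjusted p = 0.0156), in a comparison that called 39.1% of all RI (44.0% at 4 days), but the call was lost in 3 of 6 fits without a library (co-treatment library a or b or MS023 library a) and by limma on log2 odds (adjusted p = 0.118). Intron 2 (chr7:72721755-72722427, 673 bases) had Ψ of 0.0293 to 0.0857 over all libraries. Its mean Ψ at 4 days was 0.0566 ± 0.0133 in DMSO, 0.05 ± 0.000944 with GSK591 and 0.0774 ± 0.00898 with MS023. GSK591 lay below MS023 at 2 days (ΔΨ -0.0252, adjusted p = 0.013) and at 4 days (ΔΨ -0.0274, adjusted p = 0.00345), as did co-treatment (ΔΨ -0.0272, adjusted p = 0.00287, and ΔΨ -0.0254, adjusted p = 0.0166). Limma on log2 odds called only the 4-day difference between GSK591 and MS023 among these, and the 4-day co-treatment call was kept in 2 of 6 fits without a library (lost without co-treatment library a or c or MS023 library a or b). Without division by length these differences were -0.0904, -0.0909, -0.0985 and -0.0862, and the 2-day GSK591 value was -0.0206 without its library a. Against DMSO the 4-day MS023 value was 0.0208 (adjusted p = 0.145), and without DMSO 4 days library b it was 0.0285 (adjusted p = 0.0485). A longer version of intron 2 (chr7:72721641-72722427, 787 bases) had only 0 to 5 spliced reads per library. At 4 days of MS023, spliced reads of introns 9 and 2 had limma voom log2 fold changes of -0.40 and -0.41. Both were called (adjusted p = 0.030 and 0.031), each in 2 of 6 fits without a library. Spliced reads of intron 2 gave -0.36 at 7 days of MS023 (adjusted p = 0.013). At 2 days of co-treatment retained reads of intron 2 and its longer version gave -0.70 and -0.33 (adjusted p = 0.0084 and 0.017). In these comparisons 22.8%, 27.2% and 47.8% of all form reads were called. NSUN5 has near-identical pseudogenes, NSUN5P1 and NSUN5P2, so its reads may be shared with theirs. RI of NSUN5P1 were called in 1 of 6, 4 of 6 and 3 of 5 tests with GSK591 at 2, 4 and 7 days, where 26.4%, 38.2% and 27.9% of all RI were called. With co-treatment they were called in 3 of 6 and 4 of 6 at 2 and 4 days (34.7% and 39.7% of all RI). With MS023 they were called in 0 of 6 at each time (5.65%, 7.17% and 11.4% of all RI). The 1 RI of NSUN5P2 was called at 4 days of GSK591 and at 4 days of co-treatment.

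NSUN2 had no RI, and its most often called change was skipping of exon 4 after GSK591 and, to a larger extent, after co-treatment. Here Ψ is the share of transcripts that include the exon. It was 0.991, 0.985 and 0.985 in DMSO at 4 days, with 6, 13 and 10 skipping reads. In GSK591 it was 0.956, 0.928 and 0.956 at 2 days (31, 68 and 40 skipping reads) and 0.950, 0.936 and 0.927 at 4 days (33, 49 and 64). In co-treated cells it was 0.933, 0.920 and 0.907 at 2 days (35, 47 and 52) and 0.868, 0.876 and 0.883 at 4 days (87, 74 and 60). None of these libraries overlapped the DMSO libraries. With MS023 inclusion was 0.993, 0.990 and 0.973 at 2 days and 0.986, 0.987 and 0.979 at 4 days, which overlapped DMSO. At 7 days it was 0.961, 0.973 and 0.981 in DMSO, 0.926, 0.949 and 0.941 with GSK591 and 0.994, 0.986 and 0.993 with MS023.

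Skipping of exon 4 of NSUN2 passed the test in all 5 comparisons of GSK591 or co-treatment with DMSO. ΔΨ was -0.0402 (adjusted p = 2.91e-05, and -0.0451 without library a), -0.0494 (adjusted p = 1.61e-07) and -0.0328 (adjusted p = 0.00446) at 2, 4 and 7 days of GSK591, and -0.0665 (adjusted p = 2.05e-09) and -0.111 (adjusted p = 3.12e-13) at 2 and 4 days of co-treatment. Of all SE tested, 7.16%, 10.6% and 8.55% were called after GSK591 at these times and 13.8% and 14.6% after co-treatment. With MS023, after which 3.67%, 4.28% and 4.95% of SE were called, it was -0.001 and -0.003 at 2 and 4 days and 0.019 at 7 days (adjusted p = 0.0555). Co-treatment lay below GSK591 alone, with a ΔΨ of -0.0618 at 4 days (adjusted p = 4.04e-05) and of -0.026 at 2 days (adjusted p = 0.184, but -0.0357 with adjusted p = 0.0431 without GSK591 2 days library b). Of all SE, 4.70% and 5.75% were called between co-treatment and GSK591 at these times. By limma on log2 odds only the co-treatment calls of these against DMSO passed (adjusted p = 0.043 and 0.017), and the 7-day call was lost without DMSO 7 days library b or c or GSK591 7 days library a or c.

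**Figure D2:**
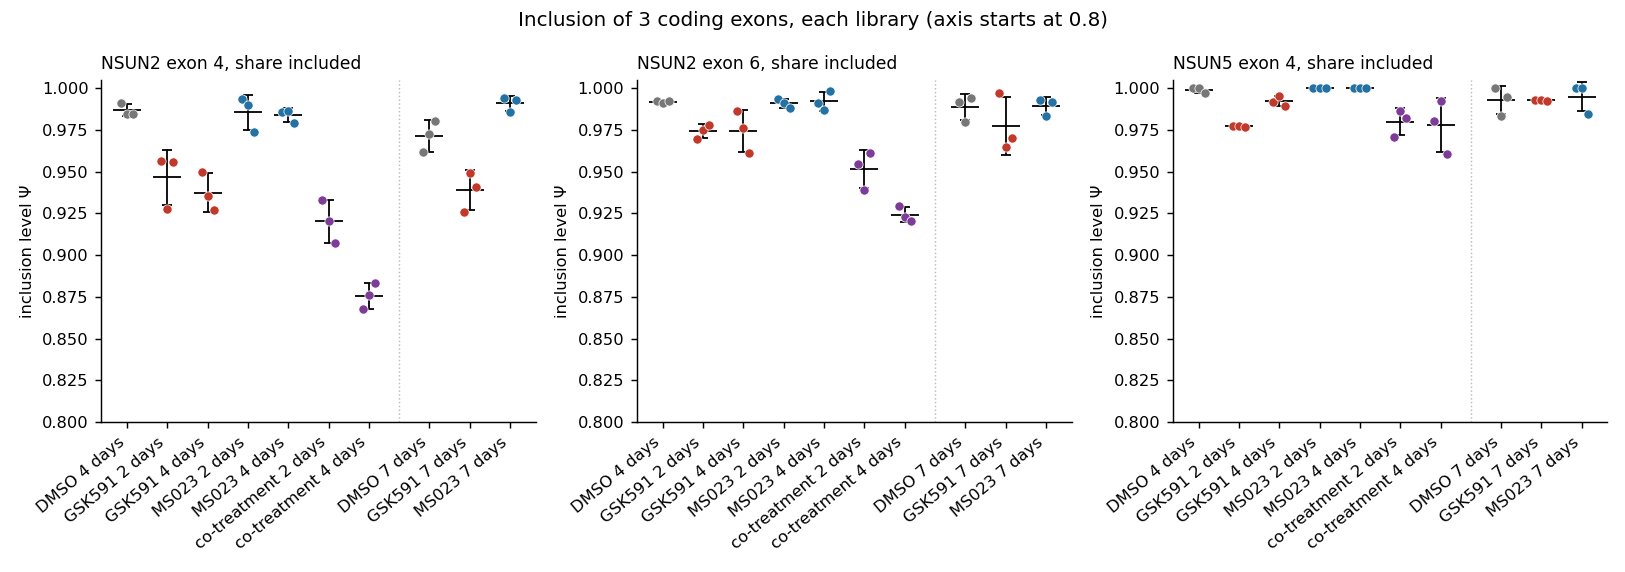
Inclusion of NSUN2 exons 4 and 6 and NSUN5 exon 4 in each library. Each point is the Ψ of a library on a vertical axis that starts at 0.8, and bars are the mean ± SD of 3 libraries. The lowest points are those of NSUN2 exon 4 with co-treatment at 4 days, 0.868 to 0.883, against 0.985 to 0.991 in DMSO.

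Exon 6 of NSUN2 was skipped in the same groups at a lower rate. Its skipping reads numbered 5, 7 and 5 in DMSO at 4 days, 22, 22 and 17 with GSK591 at 2 days, 9, 18 and 32 with GSK591 at 4 days, 25, 36 and 21 after 2 days of co-treatment and 49, 44 and 44 after 4 days of it. Ψ was 0.954, 0.939 and 0.961 with co-treatment at 2 days and 0.929, 0.923 and 0.921 at 4 days, below every DMSO library (mean 0.992). With co-treatment ΔΨ was -0.0404 (adjusted p = 1.13e-06) and -0.0678 (adjusted p = 3.85e-10) at 2 and 4 days, and at 4 days co-treatment differed from GSK591 alone by -0.0504 (adjusted p = 8.52e-06, but adjusted p = 0.222 by limma on log2 odds). The GSK591 values were smaller, -0.0177 at 2 days (adjusted p = 0.00941) and -0.0174 at 4 days (adjusted p = 0.00776), and these calls were lost in 4 and 5 of the 6 fits that leave out a library, library a of GSK591 2 days among them (-0.0153 without it). At 7 days GSK591 gave -0.0111 (adjusted p = 0.304).

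Further NSUN2 events share exons or junctions with these skipped exons and are not separate evidence. The MXE of exons 3 and 4 counts transcripts with exon 3 against those with exon 4, and its exon 3 share was 0.381, 0.390 and 0.417 in DMSO at 4 days, 0.440, 0.460 and 0.473 after 2 days of co-treatment and 0.474, 0.462 and 0.524 after 4 days of it. Its ΔΨ was 0.0615 (adjusted p = 0.0483) and 0.0907 (adjusted p = 0.00475), where 4.60% and 5.29% of all MXE were called higher at 2 and 4 days. The 2-day call was kept in only 1 of 6 fits without a library, and both calls were lost by limma on log2 odds. The share in DMSO at 7 days was 0.527, 0.555 and 0.507, above every DMSO library of 4 days. At 4 days of co-treatment NSUN2 had 12 calls among 34 tested events, where 14.7% of the events of all genes were called. All 12 were SE or MXE of exons 3 to 6, with 3 higher and 9 lower. Over all 34 tested events, called or not, ΔΨ ranged from -0.725 to 0.0907, and the lowest value does not belong to exon 4, exon 6 or the MXE above. Exons 4 and 6 are 106 and 85 bases long, so neither length is a multiple of 3. An exon inside intron 6 (chr5:6621716-6621857, 142 bases), seen in an annotated minor transcript, fell by 0.00426 at 2 days of GSK591 (adjusted p = 0.0435). Against MS023 it differed by -0.00724 at 2 days (adjusted p = 0.00328) and by 0.00756 at 7 days of GSK591 (adjusted p = 0.0403). Counted between exons 5 and 7, where its skipping reads are those that mark skipping of exon 6, it differed by -0.491 and -0.419 between GSK591 and MS023 at 2 and 4 days (adjusted p = 6.36e-06 and 0.000666) and by -0.439 and -0.503 between co-treatment and MS023 (adjusted p = 3.58e-05 and 7.64e-07). Against DMSO this count was called only without DMSO 4 days library a. ΔΨ was then -0.462 and -0.348 at 2 and 4 days of GSK591 and -0.410 and -0.432 at 2 and 4 days of co-treatment.

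Exon 4 of NSUN5 was skipped in few reads, more of them after GSK591 at 2 days and after co-treatment than in DMSO at 4 days. Skipping reads numbered 0, 0 and 1 in DMSO at 4 days, 12, 9 and 8 with GSK591 at 2 days, 8, 4 and 5 after 2 days and 7, 2 and 11 after 4 days of co-treatment, and 0 in all 6 MS023 libraries of 2 and 4 days. At 7 days they were 0, 6 and 2 in DMSO and 3, 3 and 3 with GSK591. ΔΨ was -0.0219 with GSK591 at 2 days (adjusted p = 0.00224, also -0.0219 without library a) and -0.00684 at 4 days (adjusted p = 0.17), and -0.0192 (adjusted p = 0.00442) and -0.0213 (adjusted p = 0.00315) with co-treatment at 2 and 4 days. Limma on log2 odds lost the GSK591 call (adjusted p = 0.0946) and kept both co-treatment calls. The 2-day co-treatment call was lost without its library a, and the 4-day one without DMSO 4 days library b or co-treatment library a or c. The exon is 109 bases long, again not a multiple of 3. Exon 6 of NSUN5 (chr7:72718744-72718859) was called in co-treated cells at 4 days as well (ΔΨ -0.0149, adjusted p = 0.0428).

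Among the other NOP2 events, an exon inside intron 15 (chr12:6667182-6667303, 122 bases, present in an annotated minor transcript) was included less often. It had 6, 26 and 27 inclusion reads in DMSO at 4 days, 4, 5 and 3 with GSK591 at 2 days and 6, 1 and 3 with GSK591 at 4 days, and library a of DMSO overlapped the treated libraries. ΔΨ was -0.0122 (adjusted p = 0.000208, and -0.0121 without library a), -0.0124 (adjusted p = 3.93e-05) and -0.00583 (adjusted p = 0.0432) at 2, 4 and 7 days of GSK591 and -0.00831 (adjusted p = 0.0413) and -0.0112 (adjusted p = 0.00102) at 2 and 4 days of co-treatment. All of these calls were lost by limma on log2 odds. An A3SS that moves the start of exon 5 by 12 bases (chr12:6675491-6675502) was called at 4 days of GSK591 and of co-treatment, where 8.89% and 12.3% of all A3SS were called, but all 16 of its skipping reads came from DMSO 4 days library b. Its ΔΨ of 0.159 became 0 without that library. An exon inside intron 5 (chr12:6673316-6673414, 99 bases) fell by 0.00844 at 2 days of co-treatment (adjusted p = 0.00485).

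NSUN3, NSUN4 and NSUN6 had shallower events, with a median of 59, 94 and 18 reads in the shallowest library of an event, against 615 for NOP2, 352 for NSUN2 and 290 for NSUN5. The events described here were chosen after their values were seen. No NSUN3 event was called, of 15 tested. An A3SS of NSUN3 (chr3:93802951-93803198) had mean Ψ of 0.950 ± 0.030 and 0.946 ± 0.033 in DMSO at 4 and 7 days, 0.854 ± 0.038, 0.910 ± 0.029 and 0.852 ± 0.043 with MS023 at 2, 4 and 7 days, 0.917 ± 0.029, 0.921 ± 0.020 and 0.947 ± 0.027 with GSK591, and 0.888 ± 0.013 and 0.872 ± 0.065 with co-treatment, with a smallest adjusted p of 0.146 over the comparisons with DMSO. In NSUN4 an exon inside intron 1 (chr1:46806995-46807169, 175 bases) had 14, 9 and 7 inclusion reads in DMSO at 4 days and 0 to 2 with GSK591 at 4 days (ΔΨ -0.0574, adjusted p = 0.00206). Its 2-day and 7-day GSK591 values were 0.005 (adjusted p = 0.94) and -0.0237 (adjusted p = 0.0755). In NSUN6 exon 6 (chr10:18898774-18898855, 82 bases) had Ψ of 1.0, 0.964 and 1.0 in DMSO at 4 days and 0.846, 0.836 and 0.919 with co-treatment at 4 days (ΔΨ -0.121, adjusted p = 0.00432). In DMSO at 7 days it was 0.842, 0.943 and 0.908, which overlapped the co-treatment values.

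Over all 6 genes, 6 of 73 tested events were called with GSK591 at 2 days, 6 of 67 at 4 days and 3 of 53 at 7 days, where 7.02%, 11.2% and 8.93% of the events of all genes were called. Co-treatment gave 7 of 64 at 2 days and 18 of 79 at 4 days, where 13.4% and 14.7% of all events were called. The 4-day co-treatment share of 22.8% lay above the background, with 12 of the 18 calls from overlapping NSUN2 events, and the shares of 8.22%, 8.96% and 5.66% with GSK591 and 10.9% with co-treatment at 2 days were near the background. MS023 gave 0 of 48, 0 of 52 and 0 of 52, where 3.16%, 3.75% and 4.75% of all events were called. At an unadjusted p under 0.05 there were 7, 5 and 5 such MS023 events (14.6%, 9.62% and 9.62% of those tested, against 14.3%, 15.2% and 15.9% over all genes), and limma on log2 odds called 0 in each.

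**Figure D3:**
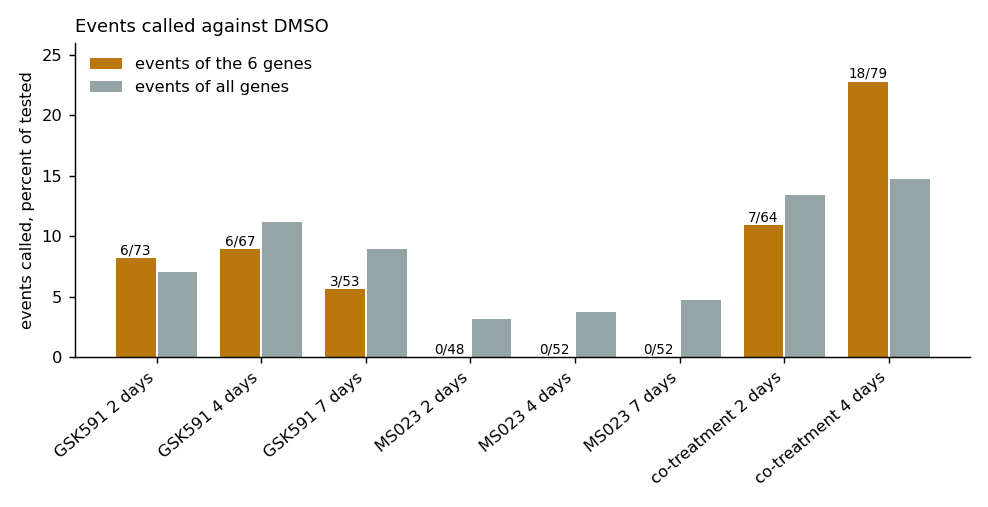
Percent of tested events called in each comparison with DMSO, for the 6 genes and for all genes. Bars start at 0, and the numbers above them are events called over events tested. At 4 days of co-treatment 18 of 79 events of the 6 genes were called against 14.7% over all genes, and with MS023 no event of the 6 genes was called.

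By gene, calls in the 8 comparisons with DMSO numbered 21 for NSUN2 (4 higher, 17 lower), 13 for NOP2 (7 higher, 6 lower), 4 for NSUN5 (all lower), 1 each for NSUN4 and NSUN6 and 0 for NSUN3. They came from 21 of the tested events. Of the 26 SE calls 25 were lower, that is, towards skipping, and among all called SE the lower share was 81.3%, 76.2% and 58.0% after GSK591 at 2, 4 and 7 days and 83.1% and 72.5% after co-treatment at 2 and 4 days. Over the SE tested in these 6 genes, 10.4%, 9.30% and 5.56% were called lower after GSK591 and 11.6% and 18.8% after co-treatment, where 5.82%, 8.07% and 4.96%, and 11.5% and 10.6%, of all SE were. The comparisons at 2 and 4 days share their DMSO libraries.

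**Figure D4:**
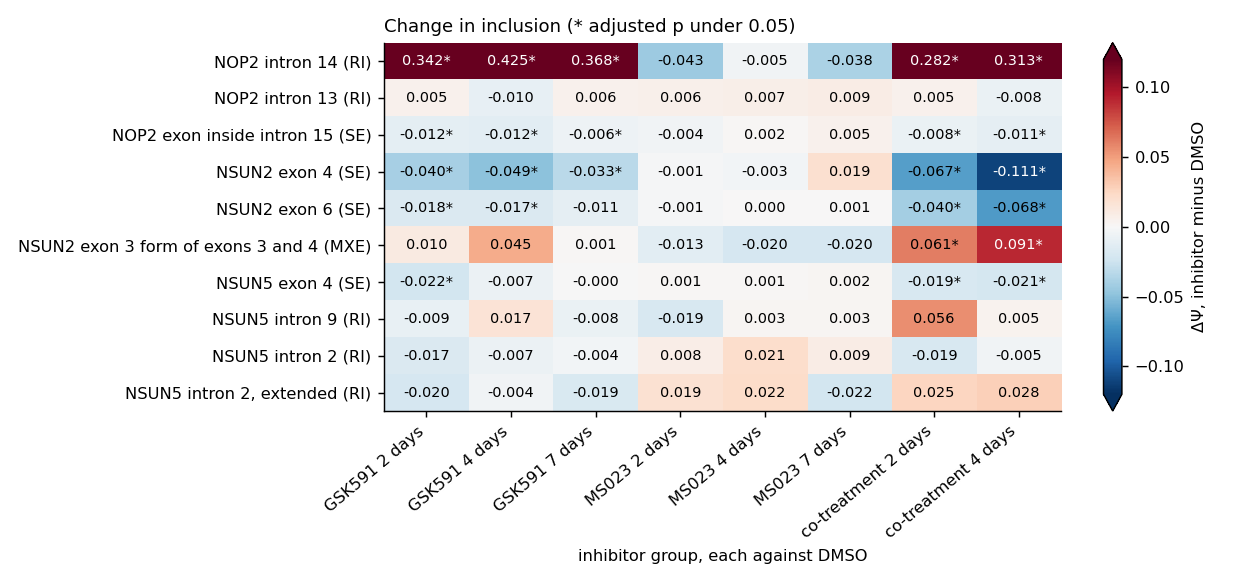
ΔΨ of 10 named events against DMSO. Each cell is an event in an inhibitor group, the colour gives ΔΨ and is capped at 0.12 in either direction, and an asterisk marks an adjusted p under 0.05. NOP2 intron 14 gained in all GSK591 and co-treatment groups, NSUN2 exon 4 lost in the same groups, and the MS023 groups hold no asterisk.

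Set directly against each other, GSK591 and MS023 differed in 9 of 45 events at 2 days, 9 of 49 at 4 days and 6 of 47 at 7 days, where 10.4%, 15.2% and 12.8% of all events were called. Co-treatment differed from MS023 in 11 of 48 and 10 of 45 events at 2 and 4 days (12.4% and 15.5% of all events). Co-treatment differed from GSK591 in 0 of 54 events at 2 days, with 12 at an unadjusted p under 0.05 and 0 by limma, and in 3 of 50 at 4 days, where 3.82% and 5.68% of all events were called. The 3 were NOP2 intron 14 and exons 4 and 6 of NSUN2, with less retention and more skipping in co-treated cells than in cells given GSK591 alone. Limma on log2 odds called none of the 3 (adjusted p = 0.22, 0.287 and 0.222). The effects at 7 days differed from those at 4 days in 0 of 40 events for GSK591 and 0 of 39 for MS023, with 5 and 4 at an unadjusted p under 0.05 and 0 by limma, where 1.83% and 0.0779% of all events were called.

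RI of genes with related functions are given for comparison by their counts. Of the other m5C writers, erasers and readers, 0 of 4 RI were called in any comparison with DMSO. Among rRNA methyltransferases and their cofactors, 4 of 12 RI were called after GSK591 at 2 days (2 higher, 2 lower), 3 of 12 at 4 days (all higher) and 4 of 12 at 7 days (3 higher, 1 lower), where 26.4%, 38.2% and 27.9% of all RI were called. After co-treatment 5 of 12 and 7 of 12 were called at 2 and 4 days, all higher, where 34.7% and 39.7% of all RI were called. After MS023 0 of 12 were called at each time, where 5.65%, 7.17% and 11.4% of all RI were called at 2, 4 and 7 days. The calls at 4 days of GSK591 were FTSJ3 (ΔΨ 0.0813), WBSCR22 (0.0238) and RRP8 (0.0778), whose products methylate rRNA. The median ΔΨ of this list at 4 days of GSK591 was 0.00796, against 0.0196 over all RI.

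Among tRNA methyltransferases 5 of 12, 7 of 12 and 4 of 12 RI were called after GSK591 at 2, 4 and 7 days, all higher, against 24.0%, 33.9% and 21.8% of all RI called higher (29.7% and 33.6% after co-treatment at 2 and 4 days). They included introns of TRMT1 (ΔΨ 0.489 at 4 days), which dimethylates guanosine in tRNA, and of THADA (0.427) and WDR6 (0.12), which support ribose methylation by FTSJ1. The median of the list at 4 days of GSK591 was 0.108. After co-treatment 6 of 13 were called at 2 days, all higher, and 7 of 12 at 4 days, 6 of them higher. After MS023 0 were called at 2 and 4 days, and 2 of 13 were lower at 7 days, in FTSJ1 (-0.0386) and THADA (-0.096). With MS023 5.65%, 7.17% and 11.4% of all RI were called in either direction at 2, 4 and 7 days. In either direction, 26.4%, 38.2% and 27.9% of all RI were called after GSK591 at 2, 4 and 7 days. After co-treatment at 2 and 4 days the shares were 34.7% and 39.7%. Of the mRNA and snRNA methyltransferases, 1 of 5, 1 of 5 and 1 of 4 RI were called after GSK591 at 2, 4 and 7 days, 2 of 5 and 1 of 5 after co-treatment at 2 and 4 days and 0 of 5 after MS023. All of these calls were in METTL3, the catalytic subunit of the N6-adenosine methyltransferase. One of its introns (chr14:21971721-21971806) was higher at 2, 4 and 7 days of GSK591 (0.0379, 0.0541 and 0.0338). The same intron was higher at 2 and 4 days of co-treatment (0.0345 and 0.0662). Another (chr14:21971435-21971648) was lower at 2 days of co-treatment (-0.0227). Of the assembly factors that act with NOP2 on the large subunit, 3 of 15, 3 of 13 and 1 of 13 RI were called higher after GSK591 at 2, 4 and 7 days. All of these GSK591 calls lay in FTSJ3 and DDX51, and the FTSJ3 intron is the one also counted among the rRNA methyltransferases. After co-treatment 6 of 14 were called at 2 days (4 higher, 2 lower) and 3 of 15 at 4 days, all higher. After MS023 0 were called at 2 and 4 days and 2 of 13 were lower at 7 days, both in DDX51 (-0.0558 and -0.102). At 7 days of MS023 11.4% of all RI were called in either direction.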

How the data were processed

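Poly(A) RNA of A549 cells was sequenced in 30 stranded, paired-end libraries. The authors trimmed reads with Trim Galore 0.6.5, aligned them to hg19 with STAR 2.4.2a and ran rMATS. They deposited 8 tables that give, for each event and library, read counts of the inclusion form and the skipping form, not normalized, with effective lengths and Ψ. The deposited columns of the authors' own comparisons (p-value, FDR, inclusion difference) were not used, and 0 columns of per-sample values were left out. Which libraries serve as the 7-day control was inferred from the labels.

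Ψ was recomputed from the counts. Events with at least 10 reads in every library of a comparison were tested with a quasi-binomial logistic model, in which the dispersion was moderated with squeezeVar (limma 3.58.1, R 4.3.3) and held at 1 or above, by a two-sided F test with Benjamini-Hochberg adjustment within event type and comparison. Called means an adjusted p under 0.05. Retained and spliced reads were compared with limma voom in place of the planned count test. Named events are all 5 tested RI and other events called in at least 2 of the 8 comparisons with DMSO, at most 4 per gene. Members and lists were chosen with earlier results of these data known. The tests were also run on simulated counts with a fixed spread between libraries. These held no outlying library such as GSK591 2 days library a, so they cannot show how the tests behave with one. Alternatives were other depth minimums, limma on log2 odds with 0.5 added to each count, adjustment over all event types, no length division, each library left out, and 2 chosen after the data were seen. Exon and intron numbers follow the GENCODE annotation of GRCh37.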

Additional observations from a re-analysis of the deposited data

How the results depend on the processing

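No paired analysis was possible because the columns of the tables carry no replicate numbers. Without division by length or with a library left out, none of the 59 called differences in Ψ of named events changed direction. The depth minimums, the other tests and the other adjustment leave Ψ as it is, so they could not change its direction. Direction was not looked at for unnamed events. Minimums of 20 reads and of 1 read and adjustment over all event types kept every count of called events within 1.5 times its value. By limma on log2 odds, 10 of the 17 counts moved further: with GSK591 against DMSO to 1, 1 and 1 at 2, 4 and 7 days, with co-treatment at 4 days to 9, for GSK591 against MS023 to 3, 5 and 2 at 2, 4 and 7 days, for co-treatment against MS023 to 2 and 5 at 2 and 4 days, and for co-treatment against GSK591 at 4 days to 0, where 7 events had an unadjusted p under 0.05 in the quasi-binomial test. A dispersion trend on the rarer form, chosen after seeing the data, moved 1 count, that of GSK591 at 7 days from 3 to 1. Leaving out 1 library gave 4 to 6 (GSK591 2 days), 4 to 6 (4 days), 1 to 4 (7 days), 4 to 7 (co-treatment 2 days), 7 to 15 (4 days), 0 to 1 (MS023 2 and 4 days, 1 without DMSO 4 days library b) and 0 to 0 (7 days) calls against DMSO. It gave 5 to 8, 6 to 8 and 2 to 4 for GSK591 against MS023, 6 to 10 and 5 to 9 for co-treatment against MS023, 0 to 1 and 3 to 4 for co-treatment against GSK591, and 0 to 1 and 0 to 0 for the difference between 7 and 4 days with GSK591 and MS023. Of 59 called differences in Ψ, refitted 354 times with a library left out, 273 stayed called and 81 did not. Without division by length 38 of the 59 moved by more than the spread between replicates. Calls among the form reads, 2, 3 and 3 with GSK591, 6 and 3 with co-treatment and 1, 5 and 3 with MS023, ranged without a library over 1 to 3, 3 to 3 and 2 to 3, over 2 to 5 and 2 to 3, and over 0 to 1, 1 to 4 and 1 to 3. With no read filter the 2-day GSK591 count was 1, and with median-ratio size factors, chosen after seeing the data, the 4-day MS023 count was 1. The negative binomial tests intended for the form reads were not run, and limma voom took their place. The cause of these shifts was not tested. Depth limits NSUN6, NSUN3 and NSUN4 most, and events with 0 to 12 skipping reads in a library, such as NSUN5 exon 4, rest on few reads.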
